A study of Mus musculus with 14 samples.

Results

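TIP60 and SRCAP are multi-subunit complexes that change chromatin through their histones. The TIP60 complex joins an acetyltransferase, KAT5, to an ATPase of the SWI/SNF superfamily, EP400, and acetylates histones H4 and H2A during transcription and DNA repair. The SRCAP complex is built around a related ATPase, SRCAP, and places the histone variant H2A.Z into nucleosomes. Both complexes hold the AAA+ ATPases RUVBL1 and RUVBL2 and the scaffold protein DMAP1. In the male germline, TIP60 is known for histone acetylation in spermatids, before histones are exchanged for protamines.

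Transcripts of 10 subunits, Kat5, Ep400, Trrap, Dmap1, Brd8, Epc1, Epc2, Ruvbl1, Ruvbl2 and Srcap, were examined among the 53239 gene symbols in the data. They were chosen by name as subunits of the 2 complexes and not by their values, but earlier results of these data were known at that time. Whole testes of C57BL/6 mice at 21 dpp (days post-partum) were used, from 3 wild-type (Adad2+/+) and 4 Adad2 mutant (Adad2M/M) animals. Adad2 encodes a germ cell RNA-binding protein of mid to late spermatocytes. All 7 animals, controls included, were heterozygous for RiboTag (Rpl22-HA, an epitope-tagged ribosomal protein) and for Stra8-iCre, which switches the tag on in differentiating germ cells. From each animal, total RNA of the lysate (input) and RNA pulled down with an anti-HA antibody (IP) were sequenced. Wild-type animals were 121, 140 and 17 and mutants were 12, 69, 93 and 94, and values per animal are given in these orders.

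On GRCm38, Kat5 lies at chr19:5603014-5610237 (minus strand), Ep400 at chr5:110664373-110770717 (minus), Trrap at chr5:144767732-144859778 (plus) and Dmap1 at chr4:117674681-117682273 (minus). Epc2 lies at chr2:49451486-49551948 (plus), Ruvbl1 at chr6:88465409-88497572 (plus), Ruvbl2 at chr7:45421760-45438096 (minus) and Srcap at chr7:127511983-127561219 (plus). All 10 members are annotated as protein coding. RefSeq promoter windows on GRCm38.p6 matched 8 members, all but Epc1 and Brd8. The bases before the annotated gene start are printed for 4 of them, because Ruvbl1, Dmap1 and Srcap stood higher in IP than in input while the catalytic gene Kat5 did not. Capitals mark matches to 3 motifs, each searched on both strands: CCAAT, then CCGGAAG, and the Sp1-type GGGCGG.
Ruvbl1, chr6:88465159-88465408, plus strand: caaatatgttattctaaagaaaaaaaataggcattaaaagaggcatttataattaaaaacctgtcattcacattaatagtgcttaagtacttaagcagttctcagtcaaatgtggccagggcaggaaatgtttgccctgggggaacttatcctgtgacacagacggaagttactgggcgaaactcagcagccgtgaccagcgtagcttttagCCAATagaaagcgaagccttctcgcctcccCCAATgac
Dmap1, chr4:117682274-117682475, minus strand: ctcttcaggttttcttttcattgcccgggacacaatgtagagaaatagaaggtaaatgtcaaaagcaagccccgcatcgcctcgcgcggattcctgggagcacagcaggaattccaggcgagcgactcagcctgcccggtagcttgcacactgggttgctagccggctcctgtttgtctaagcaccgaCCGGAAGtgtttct
Srcap, chr7:127511733-127511982, plus strand: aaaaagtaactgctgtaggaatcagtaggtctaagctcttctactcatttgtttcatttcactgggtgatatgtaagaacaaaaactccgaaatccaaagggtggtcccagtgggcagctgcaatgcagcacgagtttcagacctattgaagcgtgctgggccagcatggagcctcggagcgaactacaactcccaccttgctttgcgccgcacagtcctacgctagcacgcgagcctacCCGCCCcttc
Kat5, chr19:5610238-5610344, minus strand: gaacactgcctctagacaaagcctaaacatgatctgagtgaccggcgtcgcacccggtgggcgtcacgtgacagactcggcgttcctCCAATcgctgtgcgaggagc
Within 250 bases before the RefSeq start, CCAAT was found in 3 of 8 members against 33.8% of all windows. CCGGAAG, the core of ETS-family sites, was found in 1 of 8 (Dmap1) against 6.91%, and GGGCGG, the core of Sp1-type sites, in 5 of 8 against 32.7%. TGACGTCA, the palindrome bound by CREB-family factors, was in 0 of 8 against 1.55%. The 4 printed members held 1 kind of motif each in these windows: CCAAT in Ruvbl1 and in Kat5, CCGGAAG in Dmap1 and GGGCGG in Srcap. A second RefSeq window of Kat5, not counted here, held GGGCGG. Such matches describe the sequence and do not show binding.

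Total counts with spike-ins ranged from 22987974 to 30330450 in input and from 25037235 to 30871330 in IP. Adad2 itself was at 99.0, 109 and 97.8 CPM (counts scaled to library size) in wild-type IP and at 10.8, 11.5, 8.90 and 6.30 in mutant IP, each mutant below each wild type, as in input (5.21 to 11.1 against 24.7 to 30.8 CPM). Mutant inputs 12, 69 and 93 showed 16024, 15438 and 21334 annotated genes above 0 against 25319 to 27791 in wild-type input, while mutant input 94, at 27002, lay within that range. All 4 mutant IP libraries showed fewer genes than wild-type IP, 12744 to 15024 against 19655 to 21880. In wild-type IP, 8 of 10 spermatogonial and 8 of 10 early meiotic markers were higher, with Zbtb16 at 2.23 and Sycp3 at 1.73 on the log2 scale. The meiotic marker Sycp2 was lower. Later germ cell markers were mixed, with 5 of 10 late pachytene markers higher and 3 lower. Of 12 round spermatid markers, 1 was higher and 3 were lower. Somatic markers were depleted (7 of 10 Sertoli and 5 of 7 Leydig markers lower, with Sox9 at -2.49 and Cyp17a1 at -2.24). Of the macrophage markers 3 of 7, Csf1r among them at -2.70, and of the vessel and blood markers 3 of 7 were lower in wild-type IP, where Cd68 (-2.74), Pecam1 (-1.40) and Cdh5 (-1.27) did not pass. The other leading markers were at 1.64 (Gfra1), 0.82 (Sycp1), 0.90 (Ldhc), -3.13 (Pgk2), 1.54 (Acrv1), -1.74 (Akap3), -1.15 (Amh) and -2.19 (Cyp11a1) on that scale. Summed late pachytene markers (Ldhc and Pgk2 among them) were at 4621 to 5172 CPM in wild-type and 3317 to 4601 in mutant input, and at 8528 to 9586 against 6724 to 7456 in IP. Summed round spermatid markers (Acrv1 and Akap3 among them) were at 308 to 380.2 against 172 to 237 CPM in input and at 222 to 226 against 121 to 170.3 in IP, where Gapdhs, Tssk2, Prm1, Prm2 and Tnp1 were at 0 in all 4 mutants. Summed Sertoli (916 to 1034 against 1173 to 1519 CPM), macrophage (107 to 146 against 167 to 199 CPM) and early meiotic markers (1707 to 1805 against 1971 to 2201 CPM) were higher in every mutant input than in every wild-type input. Gene by gene, 8 of 10 Sertoli and 7 of 7 macrophage markers had log2 fold changes above 0 between genotypes in input. Early meiotic markers were split, with 6 above and 4 below 0. The part of these marker levels in the input values below was not tested.

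Levels of the members were compared with each other in TPM, transcript abundance scaled to length and library. In wild-type input, Ruvbl2, one ring-forming ATPase of the pair, was the most abundant at 77.0, 69.8 and 75.6 TPM, above every value of the other members. Ep400, Brd8, Trrap and Ruvbl1 followed with means of 40.6, 39.3, 38.9 and 33.8 TPM, and Kat5, Dmap1 and Srcap with 25.9, 25.7 and 23.4 TPM. Each of these 7 overlapped its neighbour in the order. Farther apart, every value of Ep400 and Trrap exceeded those of Kat5, Dmap1 and Srcap, and every value of Ruvbl1 those of Dmap1 and Srcap. The paralogs Epc1 and Epc2, which encode the enhancer of polycomb subunits that tie KAT5 to the rest of the complex, were the lowest. Epc1 was at 9.27, 8.28 and 10.4 TPM and Epc2 at 6.54, 5.79 and 6.26 TPM, and no wild-type input value of Epc2 reached those of Epc1.

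In wild-type IP the order opened out. Ruvbl2 was at 389, 417 and 408 TPM and Ruvbl1 at 208, 201 and 200.4 TPM, each apart from its neighbours. Brd8, Dmap1, Ep400, Srcap and Trrap lay between 134 and 80.7 TPM on average. Kat5 was at 22.0, 24.6 and 29.9 TPM, close to its input values, and had only Epc1 and Epc2 below it. The 2 ring ATPases differed by about the same proportion in each group: Ruvbl2 over Ruvbl1 ranged from 2.04 to 2.35 in wild-type input, 1.87 to 2.08 in wild-type IP, 1.82 to 2.44 in mutant input and 1.79 to 2.01 in mutant IP. The proportion of the 2 motor ATPases, Ep400 over Srcap, was 1.44 to 2.04 in wild-type input and 0.986 to 1.18 in wild-type IP, without overlap. In mutants it was 1.28 to 3.96 in input and 0.847 to 1.30 in IP. Kat5 over Ep400 was 0.618 to 0.662 in wild-type input and 0.196 to 0.252 in wild-type IP, and 0.359 to 0.526 in mutant input and 0.177 to 0.402 in mutant IP, where the ranges overlapped. These proportions were chosen after the values were seen and are given without a test.

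**Figure D1:**
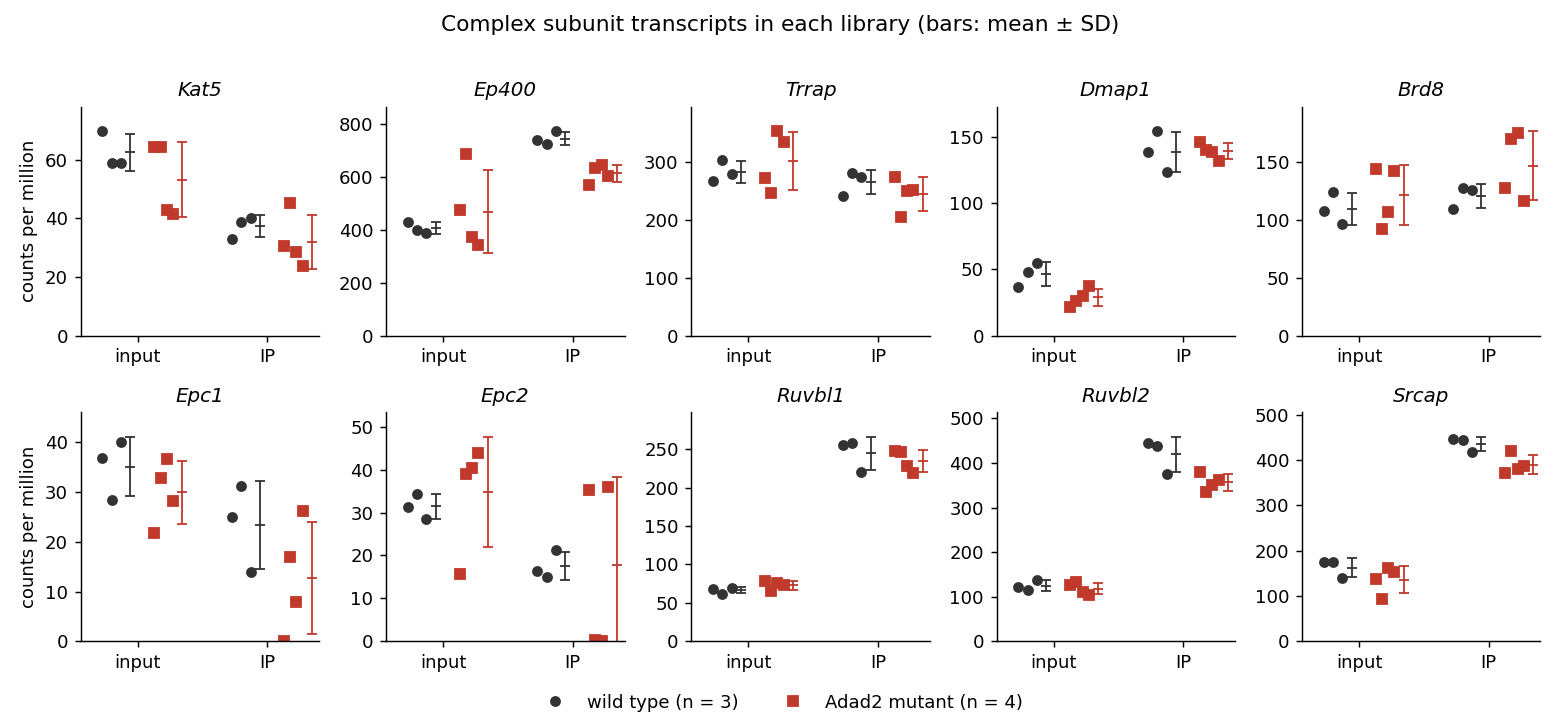
CPM (linear axes from 0) of the 10 subunit transcripts in input and IP of wild-type (circles, n = 3) and Adad2 mutant animals (squares, n = 4), with the mean and SD beside each group; input and IP were scaled separately. Ruvbl1, Ruvbl2, Dmap1 and Srcap stand higher in IP in both genotypes, and Epc1 and Epc2 each fall to or near 0 in 1 or 2 mutant IP libraries.

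The first comparison asked which members were over-represented among tagged ribosomes of wild-type germ cells. Ruvbl1, Ruvbl2, Dmap1, Srcap and Ep400 were higher in IP than in input, by 4.61-, 4.22-, 3.79-, 3.38- and 2.31-fold, and no member was called lower by edgeR. These 5 of 10 members stand against 13.0% of all 34864 features tested that were higher and 6.37% that were lower. The shares were larger among annotated genes fitted alone, where 4618 of 19175 were higher and 4090 lower. The median log2 fold change was 0.84 over the members and -0.60 over all features. DESeq2 called 7 members higher and 2, Kat5 and Epc2, lower, against 22.9% and 31.2% of features, and the same 2 were called lower by edgeR among annotated genes alone or with at least 10 counts in every library. In bulk tissue, fewer cells of a type and less RNA per cell cannot be told apart, and IP holds tagged germ cells where input holds all cells.

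Ruvbl1 had IP/input ratios of CPM of 3.62, 4.12 and 3.23 in the 3 wild-type animals, and a log2 fold change of 2.21 ± 0.10 (SE, n = 3 pairs, edgeR adjusted p = 0.00634). Ruvbl2 had ratios of 3.55, 3.76 and 2.76, with a log2 fold change of 2.08 ± 0.13 (edgeR adjusted p = 0.00634). All 6 ratios were above 2. Dmap1, named for binding the DNA methyltransferase DNMT1, had ratios of 3.64, 3.17 and 2.31 and a log2 fold change of 1.92 ± 0.18 (edgeR adjusted p = 0.00870). Its ratios spread more than those of the ring ATPases.

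Srcap, the motor of H2A.Z exchange, had ratios of 2.48, 2.50 and 3.06 and a log2 fold change of 1.76 ± 0.10 (edgeR adjusted p = 0.00634). Ep400, the motor of the TIP60 complex, had ratios of 1.66, 1.79 and 2.03 and a log2 fold change of 1.21 ± 0.08 (edgeR adjusted p = 0.00641), the smallest of the 5. Across annotated genes, the log2 fold changes of Ruvbl1, Ruvbl2, Dmap1, Srcap and Ep400 exceeded those of 96.2%, 95.4%, 94.1%, 92.5% and 83.1% of 19175 genes. Without animal 121 or without animal 140, edgeR called no feature at all in this comparison and the 5 members had adjusted p-values up to 0.0744, while without animal 17 those 5 members were called. The per-animal ratios above come from 1 scaling over all 14 libraries, which lies 0.343 below the wild-type fit on the log2 scale and 0.0332 below the mutant fit.

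The acetyltransferase Kat5 did not follow them, at 69.7, 59.0 and 58.8 CPM in wild-type input and 33.0, 38.6 and 40.2 CPM in IP. Its ratios were 0.459, 0.646 and 0.697, and its log2 fold change of -0.42 ± 0.14 did not pass the test (edgeR adjusted p = 0.136). In one fit over all 14 libraries it was -0.76 ± 0.21 and called lower (edgeR adjusted p = 0.0374), beside 7.42% of features lower and 12.9% higher. That fit differs in scaling, in its filter (16014 features) and in modelling both genotypes together. In TPM it was -0.02 ± 0.22 (limma adjusted p = 0.962). Kat5 was therefore below or level with input in wild type on the scales tried, and below the 5 members above on each. Its gene shares 4006 bases with Rnaseh2c on the other strand, and the strand setting of the read assignment is not given in the sources used here.

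In CPM, Trrap and Brd8 lay between. Trrap, the large pseudokinase scaffold that TIP60 shares with SAGA, had ratios of 0.878, 0.915 and 1.0 and a log2 fold change of 0.24 ± 0.08 (edgeR adjusted p = 0.120). It was -0.10 ± 0.09 in the 14-library fit and 1.04 ± 0.15 in TPM, so its direction depended on the scale. Brd8, a bromodomain subunit, had ratios of 0.981, 1.01 and 1.33 and a log2 fold change of 0.48 ± 0.12 (edgeR adjusted p = 0.0722). Brd8 depended on the scale too, and was called higher in 4 of 10 alternatives. Its TPM ratios were 2.83 to 5.65 in wild type, beside 2.19 to 3.52 for Ep400. Epc1 had ratios of 0.656, 1.08 and 0.353 and a log2 fold change of -0.32 ± 0.35, and Epc2 had ratios of 0.505, 0.430 and 0.758 and -0.52 ± 0.23, and neither passed.

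**Figure D2:**
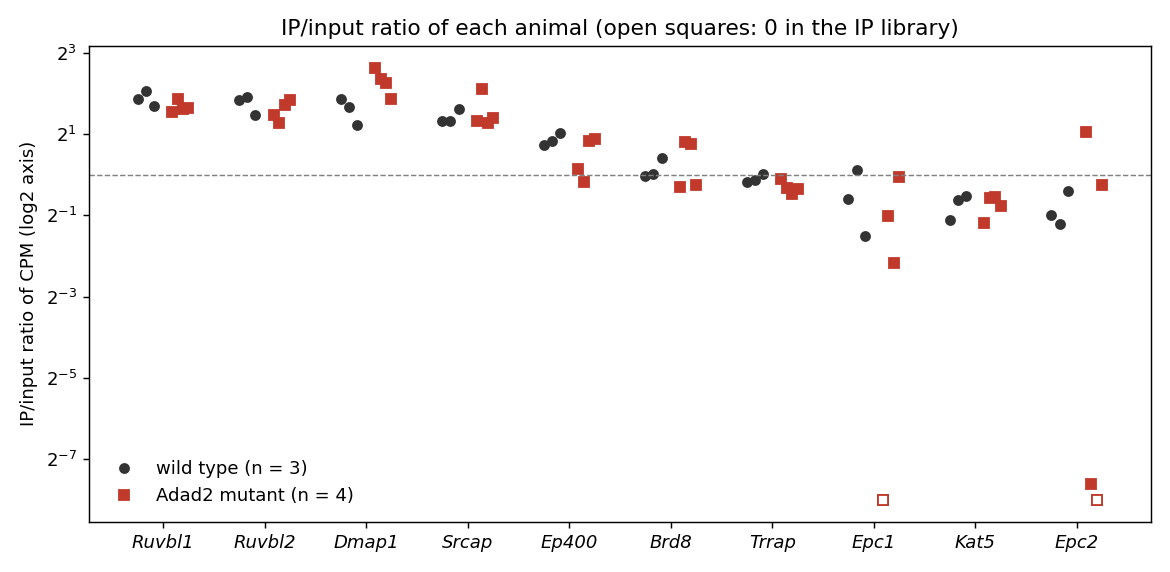
IP/input ratio of CPM (log2 axis) of each wild-type (circles, n = 3) and Adad2 mutant animal (squares, n = 4) for the 10 members, ordered by the wild-type mean on 1 scaling of all 14 libraries; open squares mark animals at 0 counts in IP and the dashed line a ratio of 1. Ruvbl1, Ruvbl2, Dmap1 and Srcap lie above 2 in all 7 animals, Kat5 lies below 1 in all 7, and Ep400 is split among mutants.

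In mutants, Dmap1, Ruvbl1, Ruvbl2 and Srcap were again higher in IP, by 4.93-, 3.23-, 3.04- and 2.92-fold, and no member was called lower by edgeR in the fit of the mutant libraries alone. These 4 of 10 members stand against 6.35% of 22918 features called higher and 3.56% called lower, and the members' median of 0.36 against -0.63 over all features. Among annotated genes fitted alone, 1424 of 15497 were higher and 1206 lower. Dmap1 had ratios of 6.19, 5.07, 4.74 and 3.64 in mutants 12, 69, 93 and 94 and a log2 fold change of 2.30 ± 0.19 (SE, n = 4 pairs, edgeR adjusted p = 0.00195). Ruvbl1 had ratios of 2.92, 3.61, 3.07 and 3.09 and a log2 fold change of 1.69 ± 0.12 (edgeR adjusted p = 0.00144). By fitted fold change Dmap1 led the members in mutants, where Ruvbl1 led in wild type. In wild-type animal 121, however, the ratio of Dmap1 (3.64) was level with that of Ruvbl1 (3.62).

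Ruvbl2 had mutant ratios of 2.77, 2.41, 3.25 and 3.57 and a log2 fold change of 1.60 ± 0.14 (edgeR adjusted p = 0.00232). Srcap had 2.50, 4.28, 2.39 and 2.60 and 1.55 ± 0.16 (edgeR adjusted p = 0.00387), with animal 69 above the other 3. Ep400 had 1.11, 0.878, 1.77 and 1.82, and its log2 fold change of 0.45 ± 0.21 did not pass (edgeR adjusted p = 0.269). Mutants 93 and 94 lay within the wild-type range for Ep400 and mutants 12 and 69 below it, and 12 and 69 are the 2 animals whose input libraries showed the fewest genes. The part of library complexity in that split was not tested. With mutants 12 and 69 left out, edgeR called no member (12 features in all), with 2 pairs remaining.

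Kat5 had mutant ratios of 0.437, 0.670, 0.684 and 0.586 and a log2 fold change of -0.74 ± 0.24 (edgeR adjusted p = 0.130). In the 14-library fit, Kat5 (-0.77 ± 0.18, edgeR adjusted p = 0.0127) and Trrap (-0.32 ± 0.08, edgeR adjusted p = 0.0187) were called lower, beside 24.4% of features lower and 16.8% higher. DESeq2, which called 29.9% of features lower and 13.9% higher, called 4 members higher and 2 lower, Kat5 at -0.87 ± 0.20 (DESeq2 adjusted p = 8.18e-05) and Trrap at -0.42 ± 0.09 (DESeq2 adjusted p = 5.53e-05). In TPM the directions turned, with Kat5 at 0.20 ± 0.28 and Trrap at 1.52 ± 0.20 (limma adjusted p = 0.00147). Brd8 did not pass in the mutant fit, at 0.28 ± 0.24 (edgeR adjusted p = 0.507). Its mutant ratios were 0.814 to 1.75 in CPM and 2.17 to 5.71 in TPM. The TPM scale raised the median of all features by 0.61 in wild type and 0.95 in mutants on the log2 scale. Ruvbl1, Ruvbl2, Dmap1 and Srcap had log2 fold changes of at least 1.31 in both genotypes under every scaling and left-out animal tried.

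**Figure D3:**
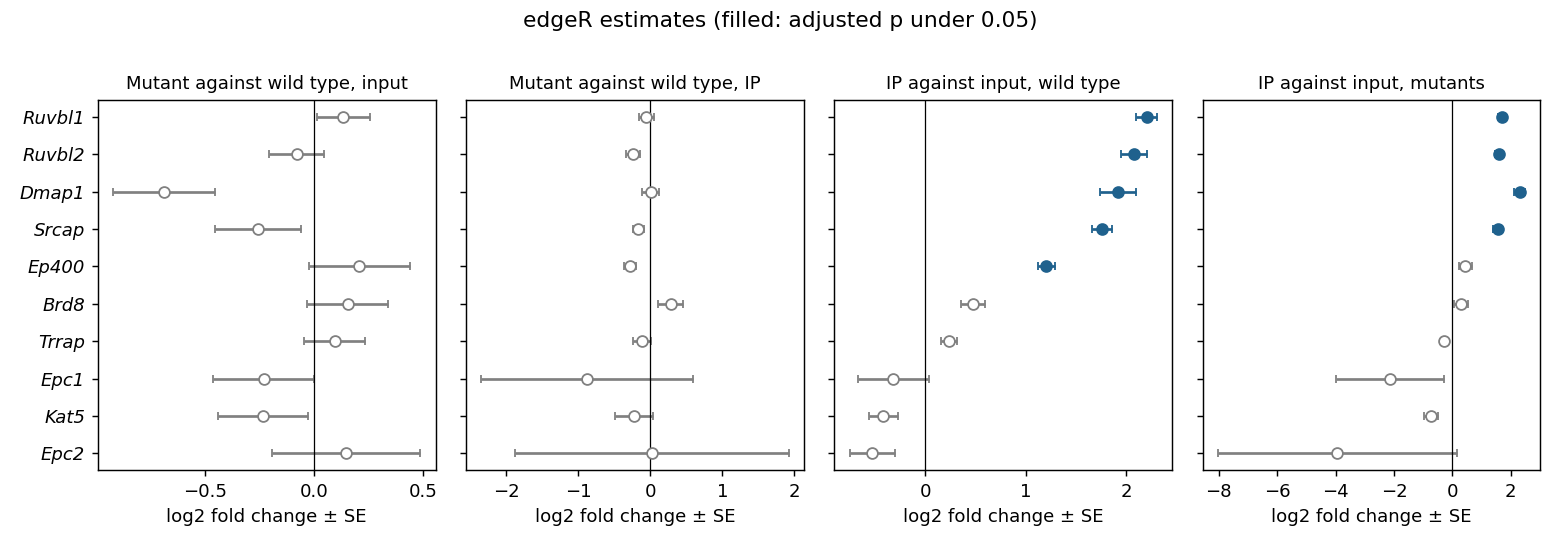
Log2 fold changes with SE from edgeR for the 10 members, mutant against wild type in input and in IP (4 against 3 animals) and IP against input in wild type (3 pairs) and in mutants (4 pairs), each panel with its own axis. Filled points pass an adjusted p under 0.05: 5 members in wild-type IP against input, 4 in mutants, and none between genotypes.

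The second comparison asked whether the members differed in total RNA of Adad2 mutants. No member passed the test between genotypes in input, where edgeR called 0.00547% of 36572 features higher and 0.00273% lower. Adad2, the mutated gene, did not pass it either, at -1.76 ± 0.37 on the log2 scale (edgeR adjusted p = 0.347). The lack of a call therefore does not exclude a change of that size. With p unadjusted and under 0.05, 1 member was lower and 0 were higher, against 4.76% and 1.6% of features. DESeq2 called 0 members, with 0.962% of features higher and 2.16% lower. The members' median log2 fold change was 0.01, against -0.18 over all features. The 1 member was Dmap1, at 36.8, 48.0 and 54.5 CPM in wild type and 21.8, 26.4, 29.9 and 37.2 CPM in mutants. Its 3 lowest mutants lay below every wild-type animal and mutant 94 within their range, and its log2 fold change was -0.69 ± 0.23 (edgeR p = 0.0190, adjusted p = 0.494, exact permutation p = 0.0857, and 0.429 adjusted over the 20 level tests). In TPM every mutant lay below every wild type, at 9.59 to 18.1 against 22.9 to 27.4. The share of all features so separated in TPM was not counted. On log2(TPM + 0.1) with limma, 22.0% of features were above 0 between genotypes in input, at a median of -0.57. The log2 fold change of Dmap1 reached -0.96 under the alternatives, and none of them called it.

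Kat5 was at 64.3, 64.2, 42.7 and 41.5 CPM in mutant input, a mean of 53.2 ± 12.8 (SD, n = 4) against 62.5 ± 6.21 in wild type (n = 3). Mutants 12 and 69 lay within the wild-type range and 93 and 94 below it. Ep400 showed the reverse pattern, at 430.0, 399 and 388 CPM in wild-type and 474, 687, 372 and 341 CPM in mutant input. Mutants 12 and 69 exceeded all 3 wild types and 93 and 94 fell short of them, and the log2 fold change of 0.21 ± 0.23 turned to -0.17 ± 0.08 without 12 and 69. Srcap was at 174, 175 and 139 CPM in wild type and 137, 93.3, 162 and 153 CPM in mutants, with its lowest value in mutant 69. Neither Kat5 nor Srcap passed, at log2 fold changes of -0.23 ± 0.21 and -0.26 ± 0.20.

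The other members did not pass in input. Ruvbl1 was at 68.3, 61.8 and 69.4 CPM in wild type and 78.2, 65.2, 75.8 and 72.8 CPM in mutants (0.13 ± 0.12), and Ruvbl2 at 121, 115 and 138 and 126, 132, 110.0 and 104 CPM (-0.08 ± 0.13). Groups overlapped for both. Trrap was at 0.09 ± 0.14, Brd8 at 0.15 ± 0.19, Epc1 at -0.23 ± 0.23 and Epc2 at 0.15 ± 0.34, and of these Trrap and Epc2, like Ruvbl1, turned sign in TPM. Input groups overlapped in CPM for all 10 members, where 11.3% of features had every mutant below every wild type and 2.58% every mutant above.

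In IP, no member passed either, with 0.00382% of 26186 features called in each direction. Adad2 did pass there, at -3.44 ± 0.24 (edgeR adjusted p = 0.0140). With p unadjusted and under 0.05, 2 members were lower and 0 higher, against 10.3% and 1.34% of features. DESeq2 called 0 members, with 1.63% of features higher and 7.94% lower. The members' median was -0.14 against -0.15 over all features. The 2 were Ep400 and Ruvbl2. Ep400 was at 738, 722 and 771 CPM in wild-type IP and at 569.9, 632, 644 and 604 CPM in mutant IP. Every mutant lay below every wild type, as for 14.5% of features, with a mean of 612 ± 33.2 (SD, n = 4) against 744 ± 25.2 (n = 3) and a log2 fold change of -0.28 ± 0.08. The adjusted p was 0.114 in edgeR (unadjusted 0.00780), between 0.0909 and 0.555 over the alternatives, and the exact permutation p of 0.0286, the smallest that 7 animals allow, was 0.429 adjusted over the same 20 tests.

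Ruvbl2 was at 446, 438 and 375 CPM in wild-type and 379, 334, 351 and 361 CPM in mutant IP, with a log2 fold change of -0.23 ± 0.10 (edgeR adjusted p = 0.386). The highest mutant, 12, passed the lowest wild type. Srcap was at 446, 443 and 418 and 370.3, 419, 379 and 387 CPM and overlapped by 1 mutant, 69 (-0.16 ± 0.08). Ruvbl1 was at 256, 258 and 219.8 and 247, 246, 228 and 218 CPM (-0.06 ± 0.10). The direction of Ruvbl1 turned under DESeq2, RLE and upper-quartile factors, the last 2 at 0.05 ± 0.10 and 0.05 ± 0.11. Summed late pachytene markers were lower and summed early meiotic markers higher (3919 to 4420.3 against 4578 to 5032 CPM) in every mutant IP. Gene by gene, 10 of 10 late pachytene markers were below 0 between genotypes in IP, and early meiotic markers were split, 5 above and 5 below. The part of these markers in the member values was not tested.

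In IP, Dmap1 was at 138, 154 and 123 CPM in wild type and 146, 140.1, 139 and 132 CPM in mutants, with a log2 fold change of 0.01 ± 0.11 and adjusted p-values of at least 0.904 under the alternatives. All 4 mutants lay within the wild-type range. Kat5 was at 33.0, 38.6 and 40.2 and 30.4, 45.1, 28.6 and 23.6 CPM (-0.22 ± 0.26), with mutant 69 above and the other 3 mutants below every wild type. Brd8 was at 109, 127 and 126 and 128, 169.9, 175 and 116 CPM (0.29 ± 0.18), and Trrap at 242, 281 and 274 and 273, 205, 249 and 252 CPM (-0.12 ± 0.12).

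Epc1 was at 0 in 1 mutant IP library and Epc2 at or near 0 in 2. Epc1 was at 25.0, 31.3 and 13.9 CPM in wild-type IP and at 0, 16.9, 7.94 and 26.2 CPM in mutant IP. Animal 12 gave 0 of its counts, where a count of 0 allows up to 3, and the same animal gave 554 in input. Epc2 was at 16.3, 15.0 and 21.3 CPM in wild-type IP and at 35.2, 0.210, 0 and 35.9 CPM in mutant IP, so that 69 and 93 were at or near 0 and 12 and 94 above every wild type. In mutant input Epc2 was at 15.8, 39.0, 40.4 and 44.0 CPM, lowest in animal 12. The libraries at 0 differed between the paralogs. Among 1970 annotated genes with a mean of 15 to 30 CPM in wild-type IP, a range set after these values were seen, 9.85% were under 0.5 CPM in 1 or more mutant IP libraries, and 23.8% of all 2748 features in that range. Fitted fold changes of the 2 genes depend on the fit's prior count and carried SEs of 1.47 and 1.90.

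The third comparison asked whether IP relative to input differed between genotypes. The interaction of fraction and genotype called 0 of 10 members, and 0 of 16014 features (0.0%) in either direction with edgeR. Adad2 was among the features not called, at -1.65 ± 0.50 (edgeR adjusted p = 0.464). DESeq2 called 0.212% higher and 5.9% lower, and 0 members. With p unadjusted and under 0.05, 1 member was higher and 0 lower, against 0.475% and 6.74% of features. That member was Dmap1, with ratios of 3.64, 3.17 and 2.31 in wild type and 6.19, 5.07, 4.74 and 3.64 in mutants and an interaction of 0.69 ± 0.25 on the log2 scale (edgeR adjusted p = 0.574). Mutants 12, 69 and 93 exceeded all 3 wild types and 94 lay at the top of their range, and 1.26% and 8.61% of features had every mutant ratio above or below every wild type. The exact permutation of the 7 animals gave p = 0.0857 (0.476 adjusted over 10 members), and in TPM ratios, where all 4 mutants lay above, p = 0.0571 (0.286 adjusted). The shares of features were counted in CPM ratios and not in TPM ratios. Between genotypes Dmap1 was at -0.69 ± 0.23 in input and 0.01 ± 0.11 in IP on the log2 scale, and neither passed.

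For the other 9 members the interaction was between -2.87 ± 3.50 (Epc2) and 0.11 ± 0.33 (Brd8). Ep400 was at -0.45 ± 0.27 (edgeR adjusted p = 0.829), Trrap at -0.22 ± 0.13, Ruvbl1 at -0.20 ± 0.15, Ruvbl2 at -0.17 ± 0.18, Srcap at 0.10 ± 0.22 and Kat5 at -0.01 ± 0.27. The members' median of -0.18 lay near the -0.29 of all features. Trrap turned to 0.48 ± 0.23 in TPM. There every mutant ratio (2.70, 2.99, 3.27 and 2.75) lay above every wild-type ratio (1.92, 2.03 and 2.30), while the CPM ratios overlapped. The exact permutation p in TPM was 0.0286 (0.286 adjusted), and the share of features so separated in TPM was not counted.

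Trrap had 15 annotated entries, 14 of them with counts. The entry with the highest TPM in wild type was Trrap-205, a protein-coding fragment of 415 bases, at 8.93, 15.0 and 7.95 TPM in wild-type input and 40.3, 49.6 and 33.3 TPM in wild-type IP. In mutants it was at 0, 12.9, 9.82 and 9.53 TPM in input and 12.3, 60.4, 75.4 and 70.6 TPM in IP. Trrap-203, of 12479 bases, went in wild type from 7.86 to 12.2 TPM on average, and the retained-intron entry Trrap-206 went from 8.77 to 15.0 TPM. The short Trrap-205 held 41.1 of the gene's mean 80.7 TPM in wild-type IP and 54.7 of 96.1 in mutant IP. In expected counts Trrap-205 averaged 87.6 in wild-type input and 209 in wild-type IP, against 3210 and 3035 for Trrap-203. The TPM values of Trrap therefore lean on few counts of a short entry.

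By mean TPM in wild type the leading entry of Brd8 was Brd8-206, a processed transcript of 599 bases without an annotated reading frame. It was at 18.2, 28.0 and 3.82 TPM in wild-type input and 87.8, 118 and 86.0 TPM in wild-type IP. In expected counts the protein-coding Brd8-202 led instead, with means of 1007 in wild-type input and 1777 in wild-type IP, against 236 and 853 for Brd8-206. In TPM, Brd8-202 was at 10.6, 10.8 and 10.6 in wild-type input and 29.4, 28.6 and 35.1 in wild-type IP. The retained-intron entry Brd8-207 went the other way, at 7.09, 5.98 and 4.30 TPM in input and 1.56, 0.810 and 1.54 TPM in IP of wild type, and at 5.09, 2.80, 4.31 and 5.41 and 0, 2.40, 2.12 and 2.90 TPM in mutants. Input exceeded IP for Brd8-207 in all 7 animals.

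**Figure D4:**
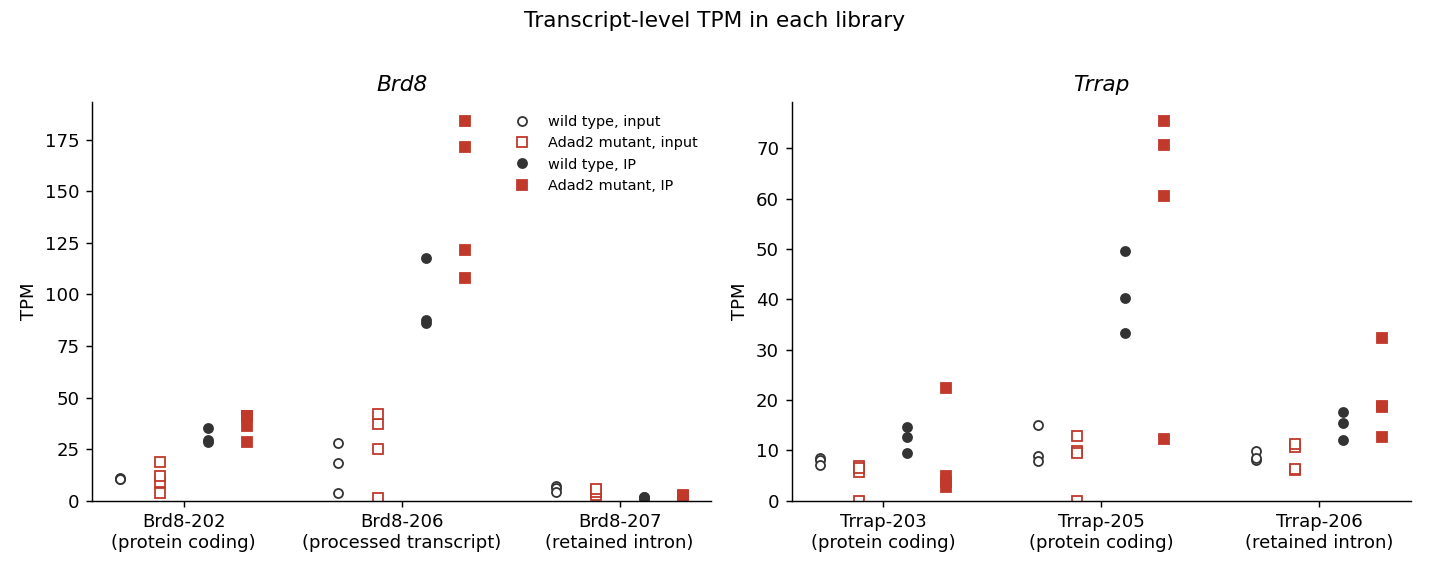
TPM of 3 entries of Brd8 and 3 of Trrap in each library, input (open) and IP (filled), of wild-type (circles, n = 3) and Adad2 mutant animals (squares, n = 4). Brd8-206 and Trrap-205, both short, are the highest entries in wild-type IP by TPM but not by expected counts, whereas the retained-intron entry Brd8-207 is lower in IP than in input.

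Over all entries, the share of a member's TPM from protein-coding transcripts was compared between IP and input for the 7 members with both classes, by exact sign flips over the animals. No share passed after adjustment. Trrap went from 60.7% to 73.4%, higher in IP in 6 of 7 animals (exact p = 0.0312, 0.109 adjusted over 7 members), and Brd8 from 38.8% to 23.1%, lower in IP in 6 of 7 (exact p = 0.0312, 0.109 adjusted). In expected counts the mean differences of both turned sign, to -5.83 and 4.92 percentage points, and Srcap was higher in IP in 7 of 7 animals by 1.62 points (exact p = 0.0156, the smallest possible, 0.109 adjusted). Kat5, Epc2 and Ruvbl1 had protein-coding entries alone.

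The leading entries of the other members in wild type were protein coding. Kat5 was listed as 1 entry, Kat5-201. Ep400-201, of 10608 bases, averaged 23.9 TPM in wild-type input and 70.5 in wild-type IP, Ruvbl1-201 33.3 and 202, Ruvbl2-201 45.0 and 254, and Dmap1-201 22.9 and 122. Epc1-201 averaged 6.38 and 7.24 TPM and Epc2-201 5.14 and 4.48. In TPM the leading entry of Srcap was Srcap-204 in wild-type input (7.70, and 7.42 in IP) and Srcap-210 in wild-type IP (35.7, and 4.99 in input). Srcap-207, at 6.96 TPM, overlapped Srcap-204 in input, and in expected counts it led in both, with means of 2411 and 5416. Gm42715 covers 41636 bases of Srcap on the same strand, so reads shared by the 2 could be split between them.

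The partner subunits of the 2 complexes were set beside the members. Of 10 tested TIP60 partners, 6 were higher and 1 lower in wild-type IP than in input, with a median of 0.64, beside 13.0% and 6.37% of all features, or 4618 and 4090 of 19175 when annotated genes were fitted alone. Of 6 SRCAP partners, 5 were higher and 0 lower, with a median of 1.18. Actl6a, Vps72, Actb and Yeats4 belong to both lists. Vps72, the H2A.Z chaperone of both complexes, was at 1.58 (edgeR adjusted p = 0.00795), Actr6, an actin-related SRCAP subunit, at 1.49, and Morf4l1, the chromodomain subunit MRG15, at 1.0. Its paralog Morf4l2 was the 1 lower partner, at -0.67 in wild type (edgeR adjusted p = 0.0259) and -1.37 in mutants (edgeR adjusted p = 0.00406), with an interaction of -0.39 (edgeR adjusted p = 0.651). In mutants 3 TIP60 partners were higher and 1 lower, and 2 SRCAP partners higher, beside 6.35% and 3.56% of all features, or 1424 and 1206 of 15497 annotated genes fitted alone.

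Genes of related machinery were set beside the members too. For these and the following lists, the shares of all features were again 13.0% higher and 6.37% lower in wild type. In mutants they were 6.35% and 3.56%. Among annotated genes fitted alone, 4618 and 4090 of 19175 were called in wild type, and 1424 and 1206 of 15497 in mutants. No list was tested as a set. The cochaperones R2TP and TTT, which assemble RUVBL1/RUVBL2 clients and the PIKK family to which Trrap belongs, were higher in wild-type IP for 6 of 6 genes (median 1.29, Rpap3 1.96, Pih1d1 1.45) and for 2 of 6 in mutants. Of the PIKK kinases 3 of 5 were higher in wild-type IP (median 0.52, Mtor 0.77, Atm 0.61), and in mutants 0 were higher and 1 lower. Of INO80 subunits, the third remodeller with RUVBL1 and RUVBL2, 6 of 12 were higher and 1, Ino80c, lower (median 0.87, Actr8 1.16, Actr5 1.97), and in mutants 1 was higher and 2 lower. Of SAGA subunits 5 of 18 were higher and 1, Atxn7, lower (median 0.40, Tada3 1.53, Kat2a 1.25), and in mutants 1 was higher and 0 lower.

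Beside these, of the other MYST acetyltransferases, the family of Kat5, 2 of 4 were higher and 0 lower in wild-type IP: Kat6a at 1.28 and Kat7 at 0.72. In mutants 2 of 4 were higher. The H2A variants and H2A.Z chaperones had 5 of 6 higher (median 1.49) and 4 of 6 in mutants, with Nap1l1 at 2.08 and H2afv, which encodes an H2A.Z, at 1.78. No gene of these lists passed between genotypes in input, in IP or in the interaction. The smallest unadjusted p-values of the interaction within the lists were those of Tada3 (0.62, edgeR adjusted p = 0.568) and Morf4l2, followed by Ino80 (0.74) and Actb (-0.22).

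The 5 genes whose CPM profile over the 14 libraries was nearest to that of Kat5 were Rchy1, Gnpat, Ubxn6, Rab11fip5 and Agpat1, at root mean square differences of 0.149 to 0.208 on the log2 scale among 12496 annotated genes. The nearest to Srcap were Slbp, Smarca4, Sycp3, Cep85 and 2510039O18Rik, at 0.130 to 0.162. Of the members, Ruvbl1 ranked 150, Ruvbl2 260 and Dmap1 786 for likeness to Srcap, and Trrap, the nearest to Kat5, ranked 1191. Kat5 ranked 6751 for likeness to Srcap. The 14 profiles share animals and the contrast of input with IP, and the ranks are a description.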

How the data were processed

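Total RNA (input) and anti-HA IP from testes of 7 animals were sequenced as stranded, rRNA-depleted paired-end libraries. The authors removed rRNA reads with Bowtie2, trimmed the rest and quantified them with RSEM 1.3.3 (version per the labels) on Ensembl GRCm38 plus assembled testis transcripts and spike-ins. The deposited tables give expected counts and TPM for each transcript, as the authors' RSEM run wrote them. The strand setting is not given in the sources used here. Here, both were summed per gene (GENCODE M21); assembled transcripts at member loci were kept as separate features and not added to the members.

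Rounded counts were tested with edgeR 4.0.16 (quasi-likelihood, TMM, filterByExpr) at a Benjamini-Hochberg adjusted p under 0.05 over all features, under R 4.3.3. IP against input was blocked by animal, since both came from 1 animal (correlations of their deviations 0.0247 to 0.146). Genotypes were also compared by exact permutation over animals (smallest p 0.0286), two-sided, and shares by exact sign flips (smallest p 0.0156), with Python 3.11.15 and scipy 1.17.1. DESeq2 1.42.0, limma 3.58.1 on log2 TPM, other scalings, filters and left-out animals were alternatives; one fit over all 14 libraries was added after seeing the data. The edgeR script was tested on simulated counts. p-values measure the spread between these animals, and intervals of counting error were not used.

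Members and lists were chosen with earlier results of these data known. All members were named, with up to 2 genes per partner list by smallest p in wild-type IP against input and up to 2 in the interaction, the first 2 genes of each marker list, the 5 profiles nearest to Kat5 and to Srcap, and each member's leading transcript; Ino80c, Atxn7, Sycp2, H2afv and the secondary transcript entries were named after their values were seen. One further list of genes is not reported here.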

Additional observations from a re-analysis of the deposited data

Results flagged for a closer look

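Srcap in mutant animal 69 stood apart from its group. Its IP/input ratio of CPM was 4.28, against 2.50, 2.39 and 2.60 in mutants 12, 93 and 94, a gap to the nearest animal larger than Dixon's 95% limit of 0.829 of the range for 4 samples. The same animal had the lowest Srcap input of the 7, at 93.3 CPM, and an IP value within the wild-type range. It was the 1 such value among 50 groups of 4 mutant values examined, where chance gives about 1 in 20.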

How the results depend on the processing

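Members called in IP against input of wild type numbered 5, and 9 with DESeq2. Over 10 alternatives, leaving out each animal among them, those 5 members were called in 8 each. Brd8 was called higher in 4 and Trrap in 3, and Kat5 was called lower in 2 and Epc2 in 1. Leaving out each animal in turn gave 0 to 5, with 0 without animal 121 or 140 (no feature at all was called in either fit). In mutants 4 members were called, 6 with DESeq2, in one fit over all 14 libraries or with at least 10 counts in every library (4 higher, with Kat5 and Trrap lower), 5 among annotated genes alone, 7 with limma on TPM at either offset, 0 with mutants 12 and 69 left out, and 4 with any 1 animal left out. Between genotypes and in the interaction 0 members were called in input, in IP or in their ratio under the alternatives run. Without the replicate block, which pairs input and IP of an animal, 7 members were called in wild type (6 higher and 1 lower), 4 in mutants and 0 in the interaction. Under limma on log2(TPM + 0.1), the log2 fold changes that turned sign were Ep400 at -0.043, Trrap at -0.28, Epc2 at -0.24 and Ruvbl1 at -0.077 (mutant against wild type in input), Trrap at 0.21, Dmap1 at -0.039 and Epc2 at -2.01 (mutant against wild type in IP), Epc1 at 0.086 and Epc2 at 0.24 (IP against input in wild type), Kat5 at 0.21 and Trrap at 1.54 (IP against input in mutants), Kat5 at 0.22, Trrap at 0.49, Ruvbl1 at 0.028 and Ruvbl2 at 0.042 (the interaction). Under limma on log2(TPM + 1), the log2 fold changes that turned sign were Ep400 at -0.041, Trrap at -0.27, Epc2 at -0.18 and Ruvbl1 at -0.075 (mutant against wild type in input), Trrap at 0.21, Dmap1 at -0.039 and Epc2 at -0.97 (mutant against wild type in IP), Epc1 at 0.081 and Epc2 at 0.22 (IP against input in wild type), Kat5 at 0.20 and Trrap at 1.52 (IP against input in mutants), Kat5 at 0.21, Trrap at 0.48, Ruvbl1 at 0.026 and Ruvbl2 at 0.039 (the interaction). With mutants 12 and 69 left out, the log2 fold changes that turned sign were Ep400 at -0.17 (mutant against wild type in input), Dmap1 at -0.053 (mutant against wild type in IP), Kat5 at 0.024 and Srcap at -0.17 (the interaction). Under DESeq2, the log2 fold changes that turned sign were Ruvbl1 at 0.049 (mutant against wild type in IP), Kat5 at 0.033 (the interaction). Under RLE size factors, the log2 fold changes that turned sign were Ruvbl1 at 0.049 (mutant against wild type in IP), Kat5 at 0.033 (the interaction). Under upper-quartile factors, the log2 fold changes that turned sign were Ruvbl1 at 0.053 (mutant against wild type in IP), Kat5 at 0.061 (the interaction). In one fit over all 14 libraries, the log2 fold changes that turned sign were Trrap at -0.10 (IP against input in wild type). Under protein-coding transcripts only, the log2 fold changes that turned sign were Brd8 at -0.19 and Srcap at -0.044 (the interaction). With 1 animal left out, those that turned sign ranged for Ep400 from -0.035 to 0.34 (mutant against wild type in input), Ruvbl2 from -0.15 to 0.0019 (mutant against wild type in input), Dmap1 from -0.066 to 0.076 (mutant against wild type in IP), Epc2 from -0.58 to 0.44 (mutant against wild type in IP), Epc1 from -0.69 to 0.045 (IP against input in wild type), Kat5 from -0.23 to 0.10 (the interaction), Brd8 from -0.19 to 0.28 (the interaction) and Srcap from -0.13 to 0.14 (the interaction). The limma values carry the shift in the median of all features of -0.39 (input) and -0.37 (IP) between genotypes at an offset of 0.1. The causes were not tested. Members at 0 in a library have no bounded fold change there.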
